A study of Homo sapiens with 4 samples.

Results

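The period genes PER1, PER2 and PER3, the cryptochrome genes CRY1 and CRY2 and the casein kinase genes CSNK1D and CSNK1E form the repressing arm of the circadian clock, and their transcripts were followed in A549 cells exposed to dexamethasone. Rows were taken by gene symbol: all reads listed for transcripts of these 7 symbols were summed per gene, out of 34608 genes counted. The 7 genes had 43 transcripts among the 119207 in the files, and each of the 43 has an annotated coding span. A549 is an established human lung adenocarcinoma line of alveolar epithelial origin. The dex group was exposed for 3 h to dexamethasone, a synthetic glucocorticoid hormone, at 100 nM, and the etoh group for as long to the vehicle, 0.02% ethanol. Both groups were of the same line with no genetic change named in the labels, were grown close to confluence in F12K medium and are represented by 2 libraries each. The series as a whole concerns the genomic sites of the glucocorticoid receptor, and the comparison of dex with etoh shows which transcripts differed after a short exposure to the hormone.

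The clock is a transcriptional feedback loop. The activators CLOCK, or its relative NPAS2, and BMAL1 (gene ARNTL) bind E-box sequences and drive the PER and CRY genes, whose proteins accumulate, enter the nucleus and repress the same activators. Casein kinases 1 delta and epsilon phosphorylate the PER proteins and so set how long they last and when they reach the nucleus. Glucocorticoid is a known resetting signal for clocks in peripheral tissues, the lung among them, and PER1 is one of its known direct targets.

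On GRCh38, in GENCODE 29, PER1 lies at chr17:8140472-8156506 and PER2 at chr2:238244038-238290102, both on the minus strand, and PER3 at chr1:7784320-7845177 on the plus strand. CRY1 lies at chr12:106991364-107093829 on the minus strand and CRY2 at chr11:45847118-45883248 on the plus strand. CSNK1D at chr17:82239023-82273731 and CSNK1E at chr22:38290691-38318084 are on the minus strand. The build used by the authors is not known here, and these positions serve only to place the genes.

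Upstream stretches are shown for PER1, PER2 and CRY2, whose reads rose, and for PER3, the remaining period gene, so that the family can be compared. They come from the RefSeq promoter table (GRCh38.p14). Each line runs 5′ to 3′ on the strand of the gene, covers bases upstream of the annotated start that lie in no exon of GENCODE 29, and has any match to a searched motif in capitals.
PER1, chr17:8152436-8152654, minus strand: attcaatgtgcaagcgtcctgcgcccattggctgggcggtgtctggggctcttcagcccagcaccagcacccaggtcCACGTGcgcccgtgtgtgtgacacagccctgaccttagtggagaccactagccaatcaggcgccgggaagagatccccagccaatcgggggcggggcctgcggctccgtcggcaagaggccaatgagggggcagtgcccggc
PER2, chr2:238288611-238288860, minus strand: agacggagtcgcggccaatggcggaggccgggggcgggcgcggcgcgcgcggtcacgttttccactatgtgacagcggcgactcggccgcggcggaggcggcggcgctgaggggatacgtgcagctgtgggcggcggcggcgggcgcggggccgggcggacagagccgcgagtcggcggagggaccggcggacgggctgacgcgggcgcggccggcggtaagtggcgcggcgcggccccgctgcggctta
PER3, chr1:7784041-7784290, plus strand: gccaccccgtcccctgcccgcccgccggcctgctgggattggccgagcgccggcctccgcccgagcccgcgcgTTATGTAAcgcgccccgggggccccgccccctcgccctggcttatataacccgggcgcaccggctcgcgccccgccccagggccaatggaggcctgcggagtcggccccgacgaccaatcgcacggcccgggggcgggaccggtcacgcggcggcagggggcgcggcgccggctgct
CRY2, chr11:45847282-45847405, plus strand: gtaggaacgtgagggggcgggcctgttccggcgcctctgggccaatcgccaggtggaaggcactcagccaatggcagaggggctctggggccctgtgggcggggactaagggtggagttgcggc

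Capitals in the PER1 line mark an E-box, CACGTG, that begins 173 bases before the start, and those in the PER3 line a D-box, TTATGTAA, that begins 177 bases before the start. E-boxes are bound by the CLOCK and BMAL1 pair and by the BHLHE40 and BHLHE41 repressors, and D-boxes by DBP, TEF, HLF and NFIL3. The search covered windows of 300 bases, 250 before and 50 after the start, on both strands, and no match overlapped another. The table gave 9 such windows for 6 of the genes and none for CSNK1D, whose reads also rose, so CSNK1D was not searched. CACGTG was in 1 of the 9 windows and in 7.23% of all 34943 windows of the table, and TTATGTAA was in 1 of 9 and in 0.890% of all. AGAACA, the core hexamer of the glucocorticoid response element, was in 1 window of CSNK1E, beginning 217 bases before a start, and in 14.8% of all windows. TGACGTCA, the cyclic AMP response element, was in none of the 9 and in 1.84% of all. A match is only a match of letters, and binding was not measured here. The RefSeq start of PER1 lies 31 bases downstream of the start of the counted transcript PER1-001, and that of PER2 lies 1 base from the start of PER2-001. The annotated spans of PER1 and PER2 begin further upstream, at chr17:8156506 and chr2:238290102. Their windows and the stretches shown thus lie inside the genes' own spans, and the farther starts were not searched. The CRY2 stretch shown lies downstream of another CRY2 start, chr11:45847118, which had its own window. Absence of a match applies only to the windows searched and to the exact letters given, and variants of these motifs were not searched.

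The shallowest library had 9764159 reads on named transcripts and the deepest 11887526. A gene is followed across libraries in CPM, its reads scaled to the aligned total of the library. Genes are compared with each other in TPM, computed here by dividing reads by transcript length before scaling. FKBP5, TSC22D3, KLF9 and DUSP1, known glucocorticoid-responsive genes, were higher in dex by 1.43 to 4.45 on the log2 scale, each past the threshold. Epithelial markers summed to 8522 and 7359 CPM in dex and 4244 and 4917 in etoh. All 6 were tested, and KRT7, KRT8 and KRT18 were higher in dex while EPCAM, CDH1 and KRT19 did not pass. The surfactant gene SFTPA1 was at 0 in every library and SFTPC and NKX2-1 had at most 1 read in any. The 7 alveolar markers together gave 41.5 and 30.3 CPM in dex and 24.99 and 28.7 in etoh. Nearly all came from ABCA3, which was higher in dex (log2 fold change 0.47, SE 0.15, adjusted p = 0.047). Fibroblast markers summed to 17.2 and 21.9 CPM in dex and 11.5 and 15.98 in etoh, mostly from COL1A1, which was higher in dex (log2 fold change 0.56, SE 0.18, adjusted p = 0.045). Immune markers summed to 3.53 to 4.48 CPM and endothelial markers to 0.252 to 0.509 CPM, the T cell gene CD3E, the endothelial gene VWF and COL1A2 being at 0. The part of the higher epithelial, alveolar and fibroblast sums in the results for the clock genes was not tested. In a bulk sample, more cells expressing a gene and more RNA per cell cannot be told apart. Whether replicates were grown as separate cultures is not stated in the labels, so p-values reflect only how far these 4 libraries spread, and that spread may be technical.

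After 3 h of dexamethasone, 4 of the 7 genes were called higher: PER1 by 14.7-fold, CRY2 by 2.04-fold, PER2 by 1.80-fold and CSNK1D by 1.53-fold. PER3, CRY1 and CSNK1E did not pass the test, and no member was called lower. All 7 were abundant enough to be tested. Over all 14777 tested genes, 6.98% were called higher and 4.42% lower, at an adjusted p under 0.05 in edgeR's quasi-likelihood test. The median log2 fold change (dex over etoh) of the 7 was 0.62, against -0.0026 over all tested genes. The dex and etoh libraries did not overlap in any of the 7, a separation seen in 53.3% of tested genes with groups of this size, so this count is given only as a description.

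**Figure D1:**
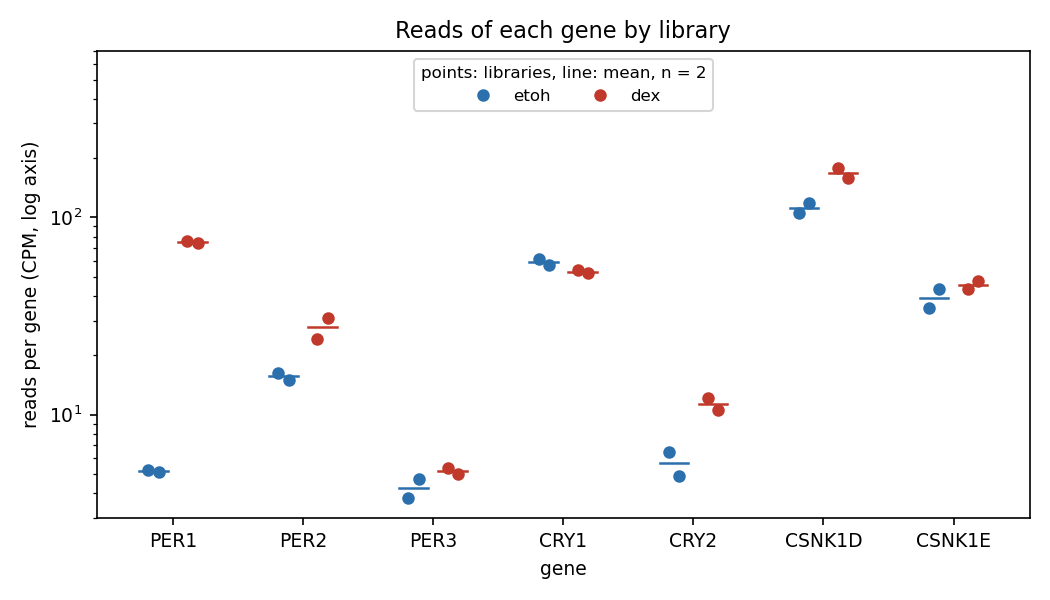
Reads of each gene in CPM, on a log axis, for the 2 etoh (blue) and 2 dex (red) libraries, with a line at each mean. The PER1 points lie near 5 CPM in etoh and near 75 CPM in dex, while the CRY1 and CSNK1E points of the 2 groups lie close together.

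PER1, known as an immediate early gene of clock resetting, had 744 and 829 reads in dex and 51 and 61 in etoh. These were 75.7 and 74.4 CPM in dex and 5.22 and 5.13 CPM in etoh. Both dex libraries stood far above both etoh libraries, and within each group the values differed by less than 2 CPM. The log2 fold change was 3.87 (SE 0.15, 95% interval 3.57 to 4.18, adjusted p = 2.3e-14 by edgeR's quasi-likelihood test). By size of increase PER1 ranked 19 and by p-value it ranked 5 among the 14777 tested genes.

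PER2, the period gene mutated in a familial advanced sleep phase, had 24.3 and 31.1 CPM in dex (239 and 346 reads) and 16.2 and 15.1 CPM in etoh (158 and 179 reads). Dex replicate 2 was the higher of the dex libraries, and the groups did not overlap. The log2 fold change was 0.85 (SE 0.15, 95% interval 0.53 to 1.16, adjusted p = 0.00043).

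PER3, the period gene with the mildest loss-of-function phenotype in mice, was the least abundant member per length, at 5.39 and 5.03 CPM in dex (53 and 56 reads) and 3.79 and 4.71 CPM in etoh (37 and 56 reads). The lowest dex library and the highest etoh library were close. Its log2 fold change was 0.30 (SE 0.25, adjusted p = 0.52), with a 95% interval from -0.22 to 0.82. That interval ends just below the PER2 estimate but overlaps the PER2 interval of 0.53 to 1.16. It ends far below the PER1 estimate.

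CRY1, the stronger repressor of the cryptochrome pair, had 54.0 and 52.2 CPM in dex (531 and 582 reads) and 61.2 and 57.3 CPM in etoh (598 and 681 reads). The dex libraries were slightly below the etoh libraries. The log2 fold change was -0.14 (SE 0.11, 95% interval -0.37 to 0.09, adjusted p = 0.50), so CRY1 did not pass the test.

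CRY2, the paralog of CRY1 that also serves as a ligase cofactor, had 12.2 and 10.5 CPM in dex (120 and 117 reads) and 6.45 and 4.88 CPM in etoh (63 and 58 reads). Both dex libraries were above both etoh libraries by more than the difference within either group. The log2 fold change was 1.03 (SE 0.21, 95% interval 0.59 to 1.47, adjusted p = 0.0018). The intervals of CRY1 and CRY2 did not overlap. To see which reads could belong to another gene, each gene was cut into stretches of 36 bases, a length chosen here. No such stretch of CRY2 occurred in another counted gene.

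CSNK1D, a PER kinase that is also mutated in a familial advanced sleep phase, was the most abundant member per length, with 178 and 159 CPM in dex (1749 and 1773 reads) and 105 and 118 CPM in etoh (1025 and 1399 reads). The dex libraries were above the etoh libraries, with a spread of over 10 CPM within each group. The log2 fold change was 0.62 (SE 0.10, 95% interval 0.40 to 0.83, adjusted p = 0.00023). An overlapping gene on the opposite strand, SLC16A3, a monocarboxylate transporter, shared 8.13% of the 36-base stretches of CSNK1D and moved with it, from 15.6 and 17.4 CPM in etoh to 27.1 and 22.5 CPM in dex (log2 fold change 0.60, SE 0.15, adjusted p = 0.0097). The strand setting of the counting is not known here, so reads from the shared stretch could belong to either gene. Transcripts CSNK1D-001 and CSNK1D-002 have none of their 36-base stretches in another counted gene, and they held 78.6% and 78.5% of CSNK1D reads as group means in dex and etoh. Both were higher in dex when tested as single transcripts, though reads shared within the gene were placed by the aligner. The part of SLC16A3 in the CSNK1D result was not tested.

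CSNK1E, the paralog kinase in which the tau mutation of the hamster lies, had 43.3 and 47.5 CPM in dex (426 and 529 reads) and 34.9 and 43.2 CPM in etoh (341 and 514 reads). Dex replicate 1 and etoh replicate 2 were nearly equal. The log2 fold change was 0.23 (SE 0.12, 95% interval -0.02 to 0.49, adjusted p = 0.27), so CSNK1E did not pass the test, and its interval overlapped that of CSNK1D.

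Of the 36-base stretches of PER2, 4.90% occurred in other counted genes, and for CSNK1D 10.1% and CSNK1E 2.97% did. The opposite-strand gene AC096574.4 shared 2.40% of the 36-base stretches of PER2, with 2.14 and 1.62 CPM in dex and 0.717 and 0.589 CPM in etoh (log2 fold change 1.53, SE 0.46, adjusted p = 0.032), against 24.3 and 31.1 CPM for PER2 in dex. Its part in the PER2 result was not tested. For PER3, 17.8% of the stretches occurred in other genes, most of them in UTS2 and RP3-467L1.4 on the opposite strand, which had at most 0.407 CPM in any library. RP11-797M17.1 shared 1.70% of those of CRY1 and had at most 0.102 CPM. PER1 shared 0.152%.

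Compared per length, the order of the members changed between the groups. In etoh, CSNK1D led at 98.7 ± 7.80 TPM (SD, n = 2), followed by CSNK1E at 41.4 ± 6.04 and CRY1 at 40.3 ± 3.86, which overlapped. PER2 at 5.27 ± 0.0829 TPM, CRY2 at 3.14 ± 0.585, PER1 at 2.67 ± 0.105 and PER3 at 1.47 ± 0.0335 followed, with CRY2 and PER1 overlapping. In dex, CSNK1D stood at 151 ± 9.58 TPM and CSNK1E at 51.6 ± 0.306, and PER1 came next at 40.7 ± 0.294, above CRY1 at 34.5 ± 2.52. PER2 at 10.4 ± 1.28, CRY2 at 5.95 ± 0.563 and PER3 at 1.86 ± 0.0158 TPM were the lowest, and no neighbours in the dex order overlapped. By this measure PER1 was in position 6 of 7 in etoh and in position 3 in dex. Each transcript's reads are divided by its own length before summing, so reads placed on short transcripts weigh more. CSNK1E includes transcripts as short as CSNK1E-016, at 763 bases, against 2642 bases for CSNK1E-003. Reads shared within a gene were placed by the aligner, and the SDs do not cover that. How far the order of CSNK1E, PER1 and CRY1, or the shares below, depends on it was not tested.

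The make-up of the PER family shifted with this. PER1 held 29.2% and 27.6% of the summed PER level in the etoh libraries and 78.0% and 75.6% in the dex libraries. As group means, PER2 made up 56.0% of the sum in etoh and 19.7% in dex, and PER3 15.6% and 3.52%, although the TPM of neither was lower in dex. The summed PER level was 9.40 and 9.42 TPM in etoh and 51.9 and 54.1 TPM in dex. The summed CRY level overlapped between groups, at 46.6 and 40.3 TPM in etoh and 39.1 and 41.8 TPM in dex. The ratio of summed PER to summed CRY transcripts was 0.202 and 0.233 in etoh and 1.33 and 1.29 in dex, so PER transcripts were fewer than CRY transcripts in both etoh libraries and more in both dex libraries.

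Within the CRY pair, CRY1 held 92.4% and 93.2% of the level in etoh and 83.8% and 86.7% in dex. Within the kinase pair, CSNK1D held 71.5% and 69.5% in etoh and 75.5% and 73.6% in dex. The groups did not overlap in any of these 3 shares. With 2 libraries a group, the two-sided exact permutation test gave p = 0.333 for each, which is the smallest p this design allows, and the adjusted value over the 3 shares is no smaller.

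**Figure D2:**
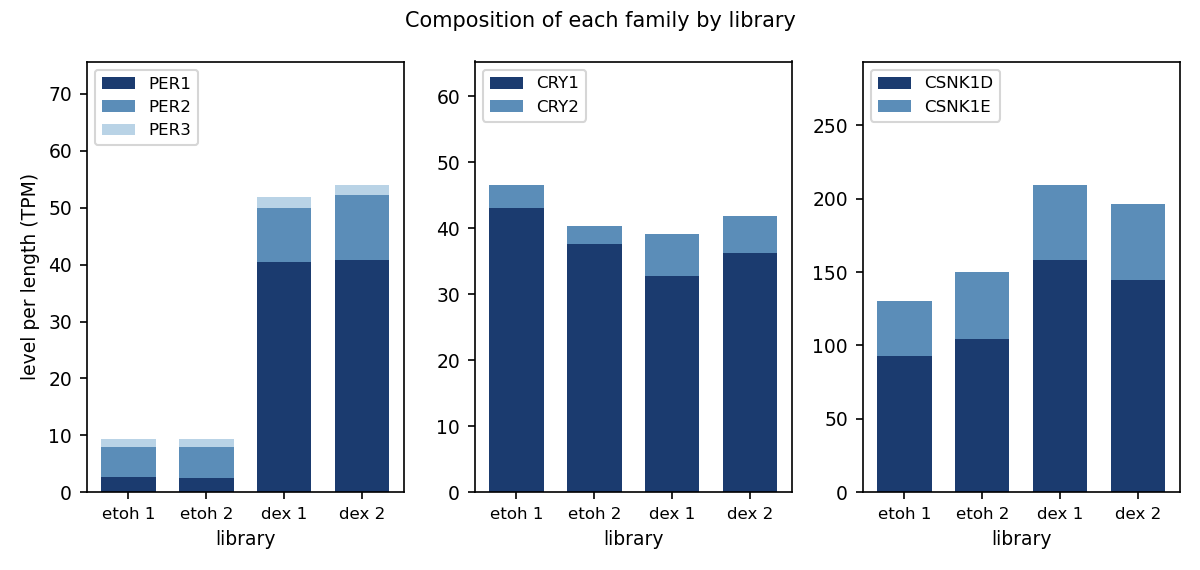
Stacked bars of the length-scaled level (TPM) of each PER, CRY and casein kinase gene in the 4 libraries, each panel with its own axis from 0. The PER bars go from about 9.4 TPM in etoh to 51.9 and 54.1 TPM in dex, most of the added height being PER1, while the CRY bars stay between 39.1 and 46.6 TPM.

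At the level of single transcripts, 33 of the 43 had enough reads to be tested, and they held 99.0% of the members' reads. Of these, 11 were called higher in dex and none was called lower, where 3.57% of all 49857 tested transcripts were called higher. The filter on low counts admits a transcript with enough reads in a single group, so some were tested only because of their dex reads. A read that fits several transcripts of a gene was placed by the aligner, so these splits are less certain than the sums. Of the 36-base stretches of PER1-001, 1.37% occurred in no other transcript, and the corresponding share was 0 for CSNK1D-002.

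All 5 tested PER1 transcripts were higher, by 3.27 to 4.45 on the log2 scale. PER1-001, with the longest coding span of the PER1 transcripts, had 247 and 240 reads in dex and 8 and 15 in etoh (log2 fold change 4.45, SE 0.24, adjusted p = 2.3e-13). PER1-005 had 228 and 287 reads in dex and 22 and 20 in etoh, and PER1-006 had 134 and 155 in dex and 13 and 18 in etoh. Each was far higher in both dex libraries. PER1-002 had 56 and 55 reads in dex and 5 and 3 in etoh, and PER1-003 had 57 and 66 in dex and 2 and 4 in etoh. PER1-001, PER1-002 and PER1-003 passed the filter on low counts only with the help of their dex libraries. That every tested PER1 transcript was higher is therefore partly fixed by the filter. The other 4 PER1 transcripts had too few reads to be tested. Among them PER1-008, PER1-009 and PER1-016 had no read in either etoh library and between 4 and 8 reads in each dex library. Against a floor of 3 reads over the etoh group, PER1-009 was at least 5.51-fold higher, PER1-008 at least 4.13-fold and PER1-016 at least 3.44-fold. In the fit without the filter on low counts, PER1-009 (adjusted p = 0.0014) and PER1-008 (0.020) were called higher. PER1-016 (adjusted p = 0.064) and PER1-010 (0.39) were not called in that fit. DESeq2 gave none of these 4 transcripts an adjusted p.

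Both tested PER2 transcripts were higher. PER2-001, with a coding span of 3768 bases, had 118 and 149 reads in dex and 82 and 73 in etoh (log2 fold change 0.83, SE 0.19, adjusted p = 0.0047). PER2-201, of similar length but with a coding span of 1215 bases, had 103 and 175 reads in dex and 73 and 97 in etoh (log2 fold change 0.76, SE 0.19, adjusted p = 0.013). The PER2-001 call was lost without etoh replicate 2 (adjusted p = 0.12), the PER2-201 call without dex replicate 2 (adjusted p = 0.30), and both under DESeq2 (adjusted p = 0.15 and 0.25). PER2-202, too low to be tested with all libraries and the filter, had 7 and 12 reads in dex and 1 and 2 in etoh. The ratio was 6.54, with an exact interval from counting of 1.93 to 34.5. PER2-202 was called higher in the fit without the filter (adjusted p = 0.024). It was not called without dex replicate 1, without etoh replicate 1 or without etoh replicate 2, and DESeq2 gave it no adjusted p. PER2-001 and PER2-201 carried similar numbers of reads in both groups, at 46.2% and 46.8% of PER2 reads in dex and 46.3% and 50.2% in etoh.

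CRY2-001, which held 82.7% of CRY2 reads in dex and 77.6% in etoh, had 99 and 97 reads in dex and 50 and 44 in etoh (log2 fold change 1.11, SE 0.22). Its adjusted p was 0.0011 in edgeR and 0.054 in DESeq2. CRY2-002, which begins further upstream at its own RefSeq start, had 21 and 20 reads in dex and 13 and 14 in etoh (log2 fold change 0.66, SE 0.38, adjusted p = 0.39). For both transcripts the dex libraries were above the etoh libraries, and only CRY2-001 passed the test.

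Of the 8 tested CSNK1D transcripts, 3 were called higher. CSNK1D-001 had 1071 and 1059 reads in dex and 654 and 838 in etoh (log2 fold change 0.58, SE 0.11, adjusted p = 0.0013). CSNK1D-002, with a coding span of 1230 bases against 1248 in CSNK1D-001, had 311 and 327 reads in dex and 149 and 263 in etoh (log2 fold change 0.71, SE 0.15, adjusted p = 0.0031, and 0.15 without etoh replicate 1). CSNK1D-015 (log2 fold change 0.89, SE 0.25, adjusted p = 0.032) had 70 and 61 reads in dex and 26 and 48 in etoh, and lost its call without dex replicate 1 (adjusted p = 0.26), without etoh replicate 1 (0.30) and under DESeq2 (0.45). CSNK1D-010 had 52 and 65 reads in dex and 52 and 59 in etoh. The other tested CSNK1D transcripts had positive fold changes that did not pass. None of the 12 CSNK1E, 2 CRY1 or 2 tested PER3 transcripts passed, and CRY1-001 carried 96.7% of CRY1 reads in dex and 95.9% in etoh.

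**Figure D3:**
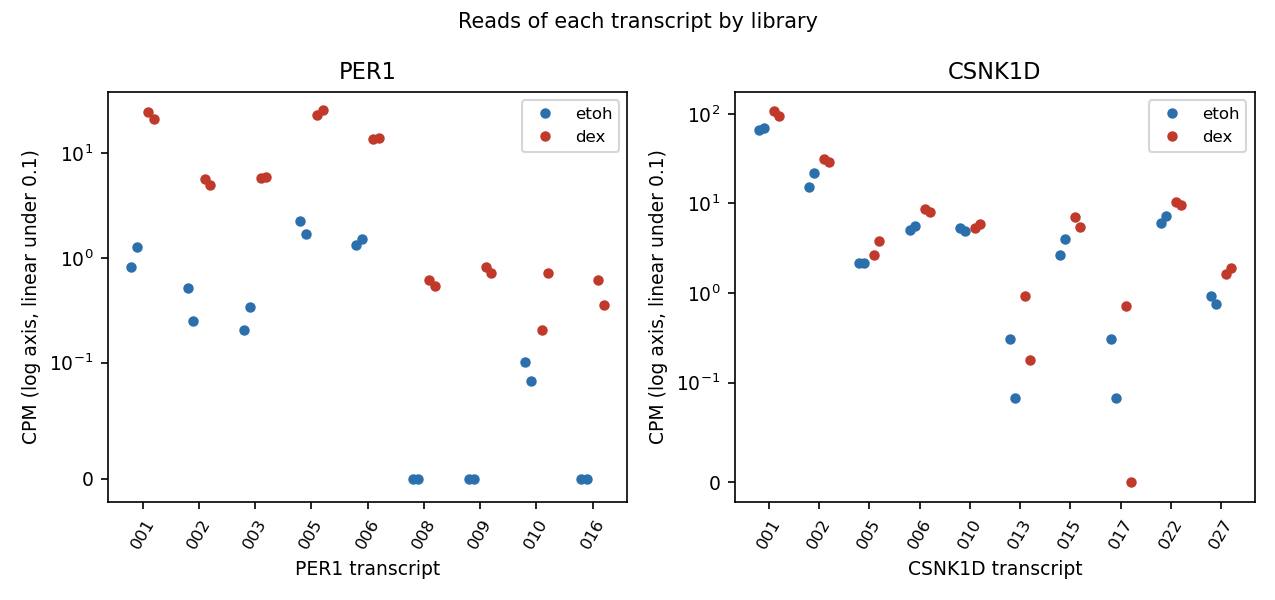
Reads of each PER1 and CSNK1D transcript in CPM for the 2 etoh (blue) and 2 dex (red) libraries, on an axis that is logarithmic above 0.1 CPM and linear below it. The dex points of each PER1 transcript lie above its etoh points, which are at 0 for 3 transcripts, while the 2 most abundant CSNK1D transcripts, 001 and 002, lie higher in dex by a smaller step and those under 1 CPM vary within a group.

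Whether the transcripts of a gene changed unequally was tested with edgeR's transcript usage test, which sets each transcript against the others of its gene. None of the 33 tested member transcripts passed at an adjusted p under 0.05, and of all 45754 transcripts tested 0% did. This does not show that usage was equal. Without adjustment, 2 of the 33 lay under 0.05, where 2.60% of all tested transcripts did. These were CSNK1D-010, whose log2 usage difference was -0.33, and PER1-001, for which it was 0.42. PER1-001 made up 33.2% and 28.95% of PER1 reads in dex and 15.7% and 24.6% in etoh, where the etoh shares rest on 8 and 15 reads.

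The other genes of the clock were read from a list by role, of which 40 are counted in the files and 36 had enough reads to be tested. Of these 36, 2 were called higher and 2 called lower, 4 in all, where 11.4% of all tested genes were called in either direction. Their median log2 fold change was 0.0033. At an unadjusted p under 0.05, 5 were higher and 7 lower, where 12.8% of all tested genes were higher and 10.7% lower.

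The activator proteins are the targets of PER and CRY repression, and only their transcripts were measured here. None of the 4 activator genes passed the test. CLOCK had 47.4 and 50.5 CPM in dex and 63.1 and 50.1 in etoh (log2 fold change -0.19, SE 0.12, adjusted p = 0.39), and the groups overlapped. ARNTL, encoding BMAL1, had 18.1 and 20.02 CPM in dex and 22.6 and 26.3 in etoh (log2 fold change -0.34, SE 0.14, adjusted p = 0.14). ARNTL2 had a log2 fold change of -0.15 (SE 0.11, adjusted p = 0.45) and NPAS2, the CLOCK relative, of -0.18 (SE 0.12, adjusted p = 0.40). All 4 values were negative, but those of CLOCK and ARNTL2 were at 0.00042 and 0.0034 once etoh replicate 1 was left out. Summed, the 4 activators had 171 and 150 TPM in etoh and 133 and 138 TPM in dex.

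Of the second loop, in which REV-ERB receptors repress and ROR receptors activate ARNTL, NR1D2, encoding REV-ERB beta, was higher. It had 203 and 207 CPM in dex and 74.3 and 74.2 CPM in etoh (log2 fold change 1.48, SE 0.10, adjusted p = 3.8e-10), and libraries within each group were nearly equal. Its paralog NR1D1, encoding REV-ERB alpha, had 3.05 and 3.05 CPM in dex and 3.17 and 2.94 in etoh (log2 fold change 0.02, SE 0.29, adjusted p = 0.98). RORA and RORB had at most 7 reads in any library and were not tested.

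Among output genes and E-box competitors, BHLHE40, encoding the repressor DEC1, was lower, with 72.1 and 69.6 CPM in dex and 127 and 130 CPM in etoh (log2 fold change -0.85, SE 0.10, adjusted p = 3.3e-06). BHLHE41, its paralog, had 1 and 6 reads in dex and 12 and 12 in etoh. Its log2 fold change was -1.69 (SE 0.62, adjusted p = 0.088), so it did not pass. The D-box factors DBP, TEF, HLF and NFIL3 did not pass either. C1orf51, the older symbol of CIART, whose protein is another repressor of the CLOCK and BMAL1 pair, was singled out after its values were seen: it had 7 and 6 reads in dex and 0 and 1 in etoh, a ratio of 13.4 with an exact interval from counting of 2.02 to 571. It was below the filter on low counts, and had an adjusted p of 0.067 in the fit without that filter.

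None of the 9 counted genes of PER and CRY degradation and nuclear partners passed the test, although TIPIN was called lower without dex replicate 2 (log2 fold change -0.57, adjusted p = 0.031) or etoh replicate 2 (-0.56, 0.025) and USP2 higher without the filter on low counts (0.98, 0.045). Among them, BTRC, a ligase subunit for PER proteins, had 32.3 and 30.3 CPM in dex and 29.4 and 33.7 CPM in etoh, and the groups overlapped. None of the 7 other casein kinase genes passed either. CSNK1A1, the alpha isoform, had a log2 fold change of 0.13 (SE 0.10, adjusted p = 0.47). Of the 8 other kinases and phosphatases, PRKAA2, a catalytic subunit of AMP-activated kinase, which marks CRY1 for breakdown, was lower at 32.3 and 39.4 CPM in dex and 52.9 and 54.7 in etoh (log2 fold change -0.57, SE 0.12, adjusted p = 0.0023). PPP1CB, a catalytic subunit of protein phosphatase 1, was higher at 739 and 894 CPM in dex and 678 and 613 in etoh (log2 fold change 0.36, SE 0.10, adjusted p = 0.030). GSK3B was called lower without dex replicate 2 (-0.44, adjusted p = 0.017). The PPP1CB call was lost without dex replicate 2 (0.22, adjusted p = 0.25), without etoh replicate 2 (0.28, adjusted p = 0.15) and with the replicate number as a block (0.35, adjusted p = 0.051).

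**Figure D4:**
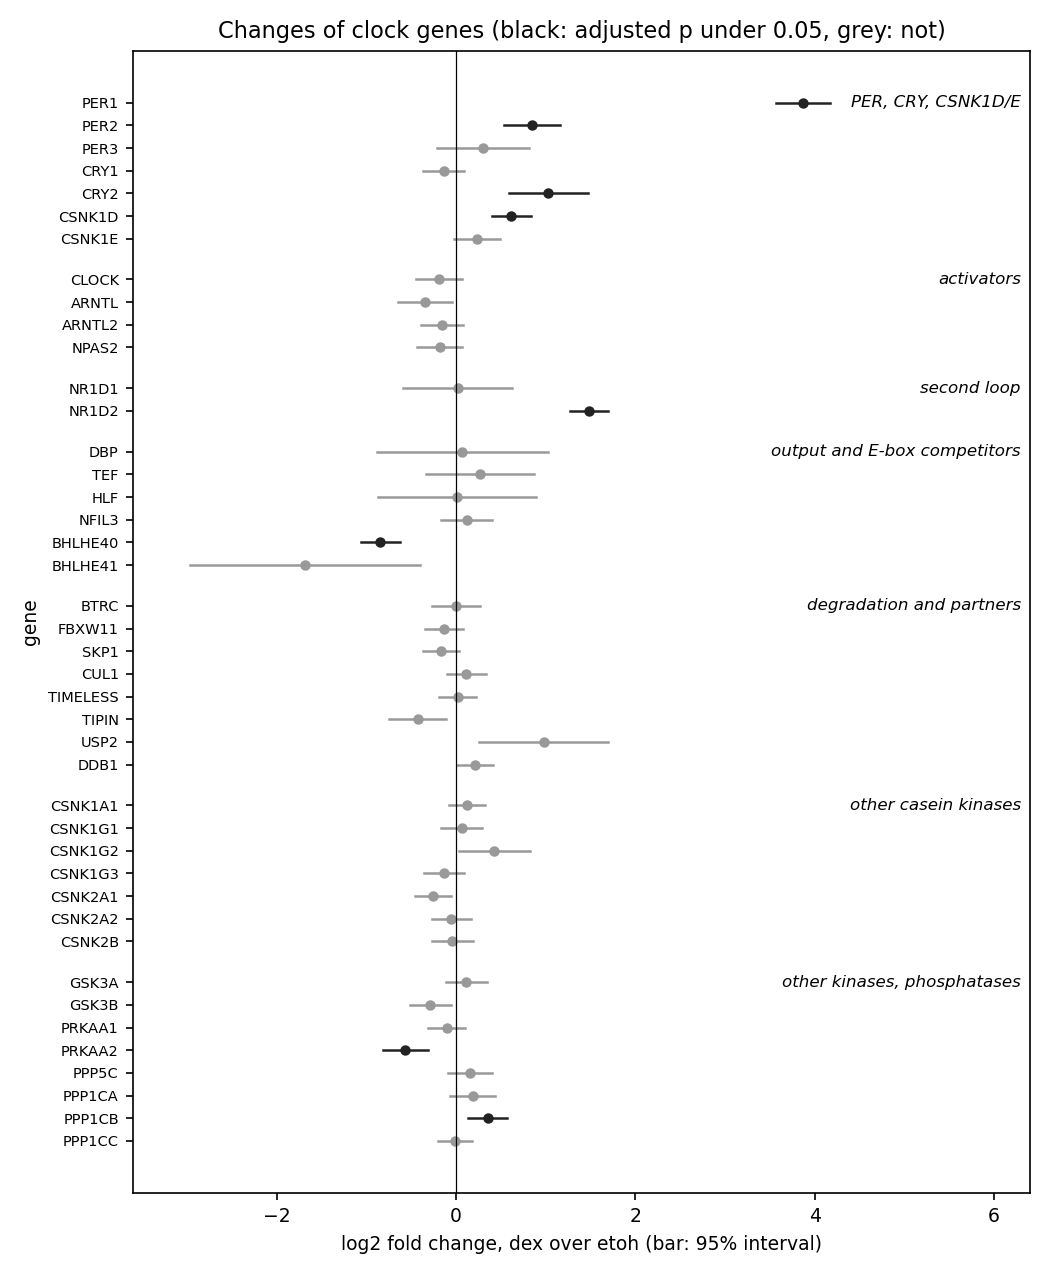
Log2 fold changes of dex over etoh with 95% intervals for the 7 members and other tested clock genes, grouped by role, in black where the adjusted p was under 0.05. PER1 lies alone at 3.87, and NR1D2 at 1.48 is the next called increase, while the activators and the casein kinases other than CSNK1D lie between -0.34 and 0.43.

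The tested genes whose values over the 4 libraries lay closest to each called member were found by the distance between log2 CPM centred on each gene's own mean, over 12975 genes averaging 2 CPM or more. For PER1 the closest was TFCP2L1, a grainyhead-related transcription factor, at a distance of 0.120, with means of 226 CPM in dex and 15.1 in etoh. NSG1 (0.212) and CIDEC (0.232) followed. For PER2 they were TMEM47, RASGEF1A and RHOBTB1, at 0.0866 to 0.108, and for CRY2 TOX2, SPSB2 and NPR1, at 0.0737 to 0.0983. For CSNK1D they were AACS, TTLL12 and POTEI, at 0.0104 to 0.0345; POTEI, a gene of a family of near-identical copies, did not pass the test itself. Likeness over 4 libraries in 2 groups reflects mainly the size of the difference between the groups.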

How the data were processed

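RNA of 4 A549 samples was sequenced, 2 per group. Deposited files hold raw read counts per transcript with its length, 1 file per library, and the unnamed row of unaligned reads (17.2% to 18.7% of reads) was left out. CASAVA, Bowtie, SAMtools and DESeq2 are named, without version or role, per the submitters' processing notes. For the build, annotation release, aligner settings and strand handling, nothing is given in the sources used here. Positions and 36-base sharing come from GENCODE 29 on GRCh38, matched by transcript identifier, and PER2-201, PER2-202 and CSNK1E-001 had no sequence of equal length there. A gene at 0 in a library lies under a floor of 3 counts, or 0.252 to 0.307 CPM. Such floors and exact intervals describe counting error alone, because the reads have no molecular identifiers. No library was a duplicate: chi-square per degree of freedom was at least 5.37.

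Counts were summed per gene and tested in edgeR 4.0.16 (R 4.3.3) by the quasi-likelihood test, with filterByExpr (minimum count 10), TMM factors, a prior count of 0.125, no covariates, two-sided, and Benjamini-Hochberg adjustment over all features tested, at a threshold of 0.05. Adjusted p-values are from edgeR where no tool is given. The SE is the absolute log2 fold change divided by the square root of F. Transcripts were tested likewise, and usage with diffSpliceDGE. TPM was computed here. All 3 tests were tested on simulated data, with less power for usage than for genes.

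The members and lists were chosen with earlier results of these data known. Named genes are all 7 members, called genes and activators of the clock list, 4 glucocorticoid-responsive genes, the 3 nearest profiles of each called member and genes that share sequence with a member. Others were named after their values were seen. Single values of 2 listed genes are not reported here. Alternatives were DESeq2 1.42.0 and its size factors, library totals, no filter on low counts, the leading transcript alone, a replicate block, an adjusted p of 0.01 and leaving out each library. Leaving out each library for the family shares was added after seeing the data. A group left with a lone library was taken to vary as the other group does. Adjusted p-values of different fits are not directly comparable. Without the filter on low counts, PER1 had a larger SE than in the main fit (0.164 against 0.145). Its adjusted p by edgeR's quasi-likelihood test was nevertheless smaller there (5.7e-120 against 2.3e-14).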

Additional observations from a re-analysis of the deposited data

How the results depend on the processing

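PER1, PER2, CRY2 and CSNK1D were the 4 members called under all 11 alternatives for genes, the replicate block among them, and no other member was called under any. Of 150 values of 15 genes (the members, the activators, NR1D2, BHLHE40, PRKAA2 and PPP1CB) under alternatives, 145 kept their direction and side of the threshold, 3, all of PPP1CB, lost the call, and 2 changed sign, CLOCK (0.00042) and ARNTL2 (0.0034), both without etoh replicate 1. With each library left out, CLOCK ranged from -0.36 to 0.00042 and ARNTL2 from -0.29 to 0.0034. Member transcripts called fell from 11 to 7 under the DESeq2 test, were 9 to 10 with each library left out and 14 without the filter on low counts, and usage calls stayed at 0. The PER1 share of the PER sum was higher in dex by 47.2 to 49.6 percentage points with each library left out, the CSNK1D share by 3.04 to 5.03, and the CRY1 share changed by -9.05 to -6.07. The cause of these changes was not tested. Calls over all genes went from 1684 to between 1007 (DESeq2) and 1965 (without dex replicate 2), with 1111 without etoh replicate 1.

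Same-numbered libraries are linked by a number only: their deviations correlated at -0.0917 over 14777 genes. With the replicate block, 1558 genes were called, 4 of them members, and other clock genes called went from 4 to 3, PPP1CB being lost. TIPIN, USP2 and GSK3B were gained under other alternatives. Depth limits genes such as PER3, DBP and HLF and the minor transcripts, and an increase below 2-fold in a gene with few reads may not be detectable.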
